A study of Mus musculus with 7 samples.

Results

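Immediate early and stress response genes, 33 of the 18193 genes that had a probe set of their own on the array, were followed through 7 arrays of mouse bladder and whole newborn RNA. The members were given as a list of gene symbols. Among the probe sets that the platform annotation assigned to a listed gene alone, the one with the highest mean over the 7 arrays stood for that gene, and all 33 genes had one. Each array was a 1-colour Affymetrix mouse 430 2.0 array, hybridized after 2 rounds of amplification of total RNA, and its probe set values are intensities in arbitrary units.

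The bladder arrays held 3 adult males (Theiler stage 28) and 3 males of postnatal day 1 (Theiler stage 27), one array per sample and without pooling. All 6 bladders came from FVB/N mice with the SMGA/EGFP transgene, in which the promoter of the smooth muscle gamma-actin gene Actg2 drives enhanced green fluorescent protein. The whole organ was dissected after CO2 euthanasia, so RNA of every bladder cell type was mixed, and fewer cells of a type and less RNA per cell cannot be told apart. The seventh array held whole wild-type FVB/N newborns of postnatal day 1, a pool of 4 males and 4 females. Its title speaks of bladders, but its source is the whole mouse, and it was read as whole newborns. Storage differed with stage, liquid nitrogen for the adults and a deep freezer for the newborns, and the effects of the 2 cannot be told apart. No label ties samples to separate litters or batches, and p-values measure only the spread between these single samples.

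Immediate early genes are transcribed within minutes of a stimulus without new protein synthesis. Serum response factor, which binds the CArG box, and CREB, which binds the cyclic AMP response element (CRE), are long known to switch them on after growth factors, stretch, injury or depolarization. Many of the products are transcription factors, among them the FOS and JUN proteins that pair as AP-1, the EGR zinc fingers and the NR4A nuclear receptors. Others, such as DUSP1, SOCS3 and ZFP36, shut down the signal or the transcripts that started the response. The heat-inducible chaperones HSPA1A, HSPA1B and DNAJB1 answer to heat shock factor and refold damaged proteins.

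Some of the promoters show these elements in the letters themselves. RefSeq promoter sequence (GRCm38.p6) was matched for 28 of the 33 members, all but Egr1, Egr3, Fosl1, Ier2 and Myc, which the counts leave out. The 250 bases before the transcription start were searched on both strands. A gene of several starts was counted if any start had the motif. The CRE core TGACG was found in 14 of the 28 (50.0%) and in 19.8% of 27025 genes, and the full CRE TGACGTCA, which contains it, in 3 (10.7%; Btg2, Dusp1 and Maff) and in 1.77% of genes. A CArG box was found in 2 members (7.14%; Egr2 and Zfp36) and in 1.62% of genes. The heat shock element core GAANNTTC was found in 4 members (14.3%; Fosl2, Hspa1a, Hspa1b and Jun) and in 7.73% of genes. The AP-1 site TGANTCA was found in 0 members and in 7.82% of genes, and TATAAA in 14.3% of both. These are matches of letters in a short window and were not tested as sites. On 1 adult array, described further on, Socs3 and Jund were among the members that stood over 2 log2 units higher. Neither had the CRE core or the CArG box in this window. Whether the motifs go with the readings on that array was not tested. The 4 promoters below are shown because they carry the CRE core or the CArG box and belong to members with some of the highest readings there. They read 5′ to 3′ towards the start, and capitals mark the CArG box and TGACG, or CGTCA where it lies on the other strand, with TGACGTCA in capitals throughout.
Nr4a1, chr15:101266596-101266845, plus strand: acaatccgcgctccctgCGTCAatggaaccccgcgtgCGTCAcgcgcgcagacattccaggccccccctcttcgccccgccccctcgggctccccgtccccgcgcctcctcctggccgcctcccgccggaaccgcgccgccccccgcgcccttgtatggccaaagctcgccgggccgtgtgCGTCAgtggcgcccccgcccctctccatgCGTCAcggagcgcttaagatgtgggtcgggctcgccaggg
Dusp1, chr17:26508473-26508722, minus strand: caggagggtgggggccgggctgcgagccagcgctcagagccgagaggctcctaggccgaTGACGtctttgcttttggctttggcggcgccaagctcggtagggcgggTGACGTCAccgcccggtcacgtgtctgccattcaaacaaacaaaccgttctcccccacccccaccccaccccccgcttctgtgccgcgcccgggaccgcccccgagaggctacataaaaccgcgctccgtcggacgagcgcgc
Egr2, chr10:67537619-67537868, plus strand: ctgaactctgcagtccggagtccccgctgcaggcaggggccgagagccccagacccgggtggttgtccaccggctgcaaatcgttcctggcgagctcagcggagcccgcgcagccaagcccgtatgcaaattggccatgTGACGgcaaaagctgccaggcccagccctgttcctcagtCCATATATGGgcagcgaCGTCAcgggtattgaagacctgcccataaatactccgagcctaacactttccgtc
Fos, chr12:85473640-85473889, plus strand: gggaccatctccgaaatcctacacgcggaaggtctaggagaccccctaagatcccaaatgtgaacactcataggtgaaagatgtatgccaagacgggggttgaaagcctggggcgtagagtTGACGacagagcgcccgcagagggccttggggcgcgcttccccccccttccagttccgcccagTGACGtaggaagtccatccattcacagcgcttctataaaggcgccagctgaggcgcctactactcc
The Nr4a1 stretch holds the CRE core 4 times, all of them in the CGTCA direction, and the Dusp1 stretch holds it 3 times, of which 2 overlap in its full CRE. In Egr2 a CArG box lies between 2 CRE cores, and in Fos 2 CRE cores stand without a CArG box in this window.

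Adult replicate 2 differed from the other 2 adult arrays across the whole array. Its log2 values correlated with those of adult replicates 1 and 3 at r = 0.931 and r = 0.936 across probe sets, whereas adult replicates 1 and 3 correlated at r = 0.971 and the postnatal day 1 arrays among themselves at r = 0.934 to 0.948. The hybridization spike-ins read 2.33 times the level of adult replicate 1 on it, and 1.11 to 1.67 times on the other 4 bladder arrays. Median intensities were 226, 312 and 234 on adult replicates 1, 2 and 3, 209 to 290 on the postnatal day 1 arrays and 434 in the whole newborns. The ratio of 3′ to 5′ probe sets, often read as a sign of RNA quality, was taken here after 2 rounds of amplification. On adult replicates 1, 2 and 3 it was 4.83, 3.84 and 5.15 for Actb and 15.3, 19.6 and 15.4 for Gapdh. On the postnatal day 1 arrays it was 1.85 to 3.70 and 19.1 to 30.9. Smooth muscle markers (10 genes, led by Acta2 and Mylk) summed to 358220, 547117 and 365198 in adult replicates 1, 2 and 3, 356206 to 456723 in postnatal day 1 bladders and 88594 in whole newborns, highest in adult replicate 2 and far higher in bladder than in whole newborns, as the tissue labels have it. Urothelium markers (11 genes) summed to 166211 to 207662, 178193 to 234674 and 38791 in the same 3 groups. Counts of members and the differences that turn on this array are given with and without adult replicate 2.

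On that array most of the set was high. Of the 33 members, 28 were higher in adult replicate 2 than the mean of adult replicates 1 and 3, and 23 were over 1 log2 unit (2-fold) higher, while 0 were over 1 log2 unit lower. Among the 30 members that passed the filter on low values, 20 were over 1 log2 unit higher, against 7.71% of all 11930 genes tested (8.13% were over 1 log2 unit lower). The median member stood 1.40 log2 units higher and the median of all genes tested -0.04. With 1 array against 2 there was no test. The widest gaps belonged to Nr4a1 (3.58 log2 units), the stress-inducible factor Atf3 (3.16), the MAP kinase phosphatase Dusp1 (2.99), Egr2 (2.95) and the cytokine brake Socs3 (2.90). Members below the other adult arrays were Ier5 (-0.64), Myc (-0.34), Klf6 (-0.30), Gadd45a (-0.21) and Fosl2 (-0.15). For 19 of 33 members adult replicate 2 exceeded all 6 other arrays, and for 16 of the 30 that passed the filter, against 17.8% of genes. It exceeded the other 5 bladder arrays for 20 of 33 members and 21.6% of genes. It was the highest adult array for 28 of 33 members and for 40.1% of genes.

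On the other 5 bladder arrays no rise of that size across the set was seen. Postnatal day 1 replicate 1 showed a smaller shift, with 22 of 33 members above its 2 neighbours (55.3% of genes). Its median member stood 0.33 log2 units higher, against 0.06 for all genes tested. It was the highest array of its stage for 18 of 33 members and 37.9% of genes. Compared with the other 2 arrays of its stage, postnatal day 1 replicate 1 had 3 members over 1 log2 unit higher (5.4% of all genes) and 0 lower (3.8%). Postnatal day 1 replicate 2 had 0 higher (2.67%) and 0 lower (5.24%), and replicate 3 had 0 higher (4.26%) and 5 lower (4.49%). Adult replicate 1 had 0 members higher (2.93% of genes) and 10 lower (2.97%), and adult replicate 3 had 0 higher (1.86%) and 13 lower (1.89%), with adult replicate 2 among the comparators of each. Per array, the median log2 value of the 33 members was 11.34, 12.57 and 11.18 in adult bladders, against 12.34, 12.15 and 11.68 in postnatal day 1 bladders and 11.16 in whole newborns. Thus the postnatal day 1 arrays lay above adult replicates 1 and 3 and below adult replicate 2.

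**Figure D1:**
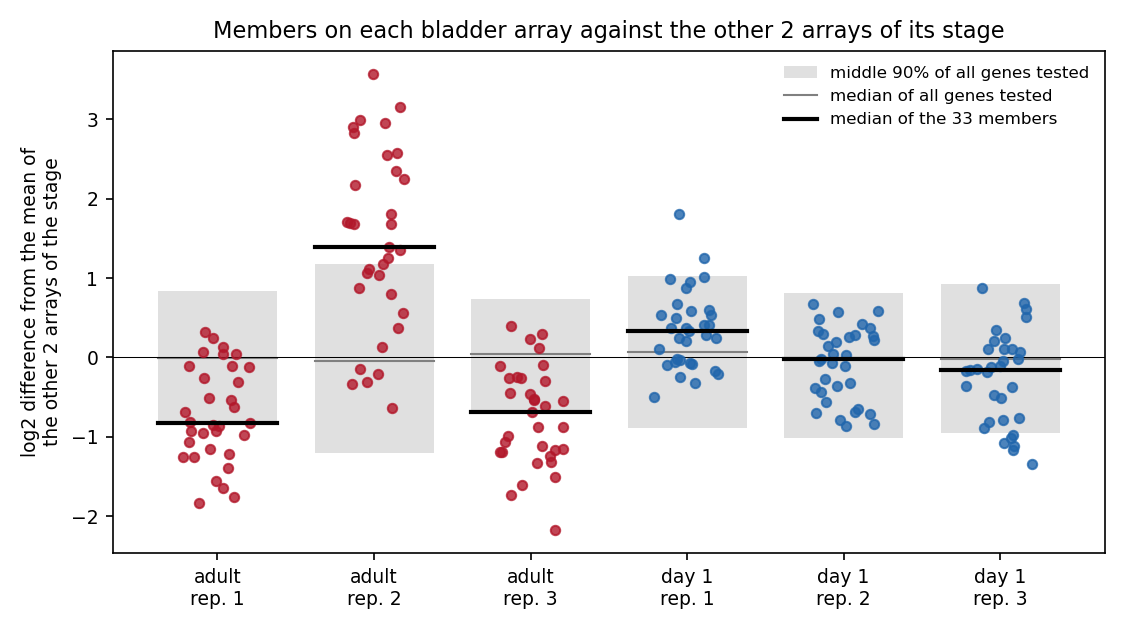
Log2 difference of each member (points, 33 genes) on each bladder array from the mean of the other 2 arrays of its stage, with the median of the members (black line) and the middle 90% and median of all genes tested (grey). On adult replicate 2 the members' median was 1.40 and 23 of 33 points lie above 1, while on the other 5 arrays the members' medians lay between -0.82 and 0.33.

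Cell type markers moved with that array too, and their part in the members' levels was not tested. Of all genes tested, 7.71% were over 1 log2 unit higher in adult replicate 2 and 8.13% lower. Between the stages, 5.88% of genes were called higher in adult bladder and 6.59% lower. The median smooth muscle marker stood 0.61 log2 units higher in adult replicate 2 than in its 2 neighbours, with 2 of 10 over 1 log2 unit higher. Macrophage and antigen presenting cell markers summed to 27511, 63226 and 29362 in adult replicates 1, 2 and 3, against 20162, 12603 and 15122 in postnatal day 1 replicates 1, 2 and 3 and 53991 in whole newborns, and 6 of these 11 genes were over 1 log2 unit higher in adult replicate 2. The class II chain H2-Aa, one of them, had 1993, 12669.6 and 2069 in adult bladders, against 74.7, 106 and 74.3 in postnatal day 1 bladders. Peripheral neuron markers summed to 8961, 2093 and 8752 in adult bladders, against 13536, 18432 and 10553 in postnatal day 1 bladders, with 7 of 11 over 1 log2 unit lower in adult replicate 2 and Gap43 at 13.1 there. Male accessory gland markers summed to 11109, 635 and 11303 in adult bladders, against 734, 671 and 474 in postnatal day 1 bladders, with 9 of 12 over 1 log2 unit lower in adult replicate 2. The seminal vesicle transcript Svs4 had 3149.7, 3.45 and 3861 in adult bladders, against 5.98, 0.93 and 3.98 in postnatal day 1 bladders, so that it was near 0 in adult replicate 2 and in every newborn bladder. Called between the stages were 5 of 11 macrophage markers (higher in adult bladder), 4 of 11 neuron, 7 of 7 tested skeletal muscle, and 1 each of 11 urothelium, 8 fibroblast and 8 tested endothelium markers (lower), 1 of 4 tested mesothelium markers (higher), 0 of 10 smooth muscle markers and 0 of 1 tested erythroid marker, while no accessory gland marker passed the filter.

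**Figure D2:**
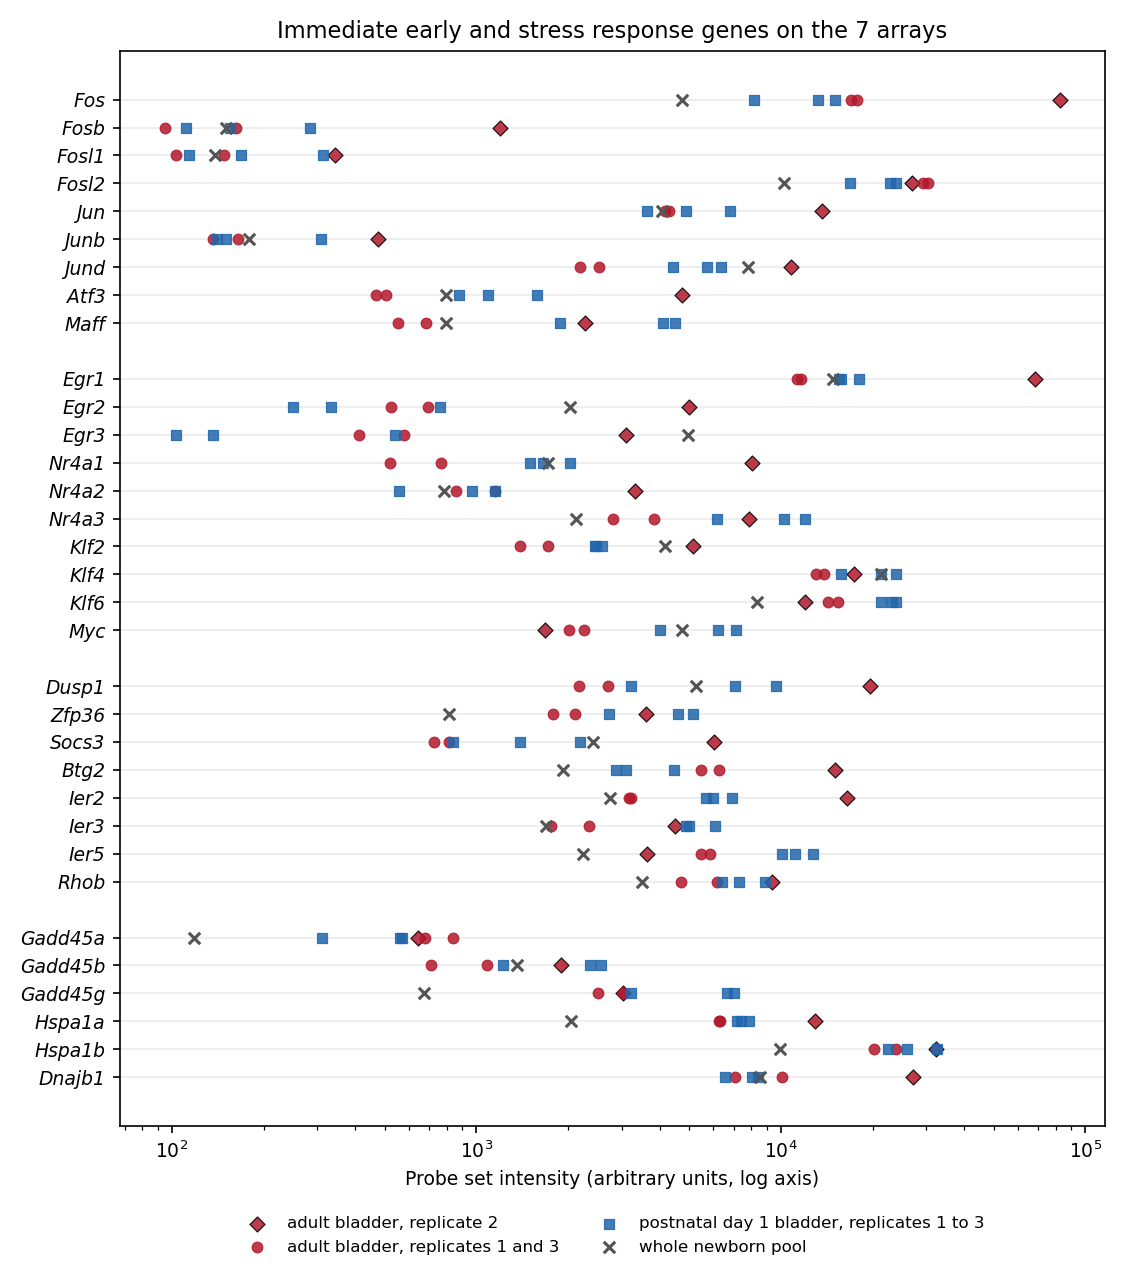
Intensity of each of the 33 members (log axis, arbitrary units) on the 7 arrays, with adult bladder in red (replicate 2 as a diamond), postnatal day 1 bladder in blue and whole newborns as a cross, ordered by role. The red diamond lies right of all 6 other arrays for 19 of the 33 genes, and Myc, Ier3, Ier5, Klf6 and Gadd45g have all 3 adult arrays left of the 3 postnatal day 1 arrays.

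Between the stages, few members differed beyond the spread of the arrays. With all 6 bladder arrays, 0 of the 30 members tested were called higher in adult bladder (5.88% of 11930 genes) and 3 were called lower (6.59% of genes; 12.5% in either direction): the growth regulator Myc, Ier5 and the zinc finger factor Klf6, by limma with a Benjamini-Hochberg adjusted p under 0.05 over all genes tested. At an unadjusted p under 0.05, 4 members were higher (13.4% of genes) and 7 lower (14%) in adult bladder. Limma with array weights called 2 higher (14.4% of genes) and 11 lower (13.4%). The other 3 members, Fosb, Fosl1 and Junb, were above their array's median on fewer than 3 of the 6 arrays and were not tested. Without adult replicate 2, 0 were called higher (7.44% of genes) and 10 lower (8.23% of genes; 15.7% in either direction), namely Maff, Ier3, Nr4a3, Ier5, Myc, Nr4a1, Jund, Ier2, Klf6 and Atf3. At an unadjusted p under 0.05 that fit had 2 members higher (15.9% of genes) and 17 lower (15.9%). The median difference of all 33 members was -0.11 log2 units with all arrays and -0.58 without adult replicate 2, where the median of all genes tested was -0.01 in both. The members' median changed sign with single arrays and was 0.23 when adult replicate 1 was left out, 0.27 when it was adult replicate 3 and 0.03 when it was postnatal day 1 replicate 1. Of the 10 genes, Ier2, Atf3 and Nr4a1 had positive differences when adult replicate 1 or 3 was left out instead (0.23 to 0.54), none of them called. Counting ranges alone, all 3 adult arrays lay above all 3 postnatal day 1 arrays for 4 members (15.8% of genes) and below for 5 (16.5%). When adult replicates 1 and 3 alone were set against the 3 postnatal day 1 arrays, they lay above for 4 (25.2% of genes) and below for 20 (25.5%).

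**Figure D3:**
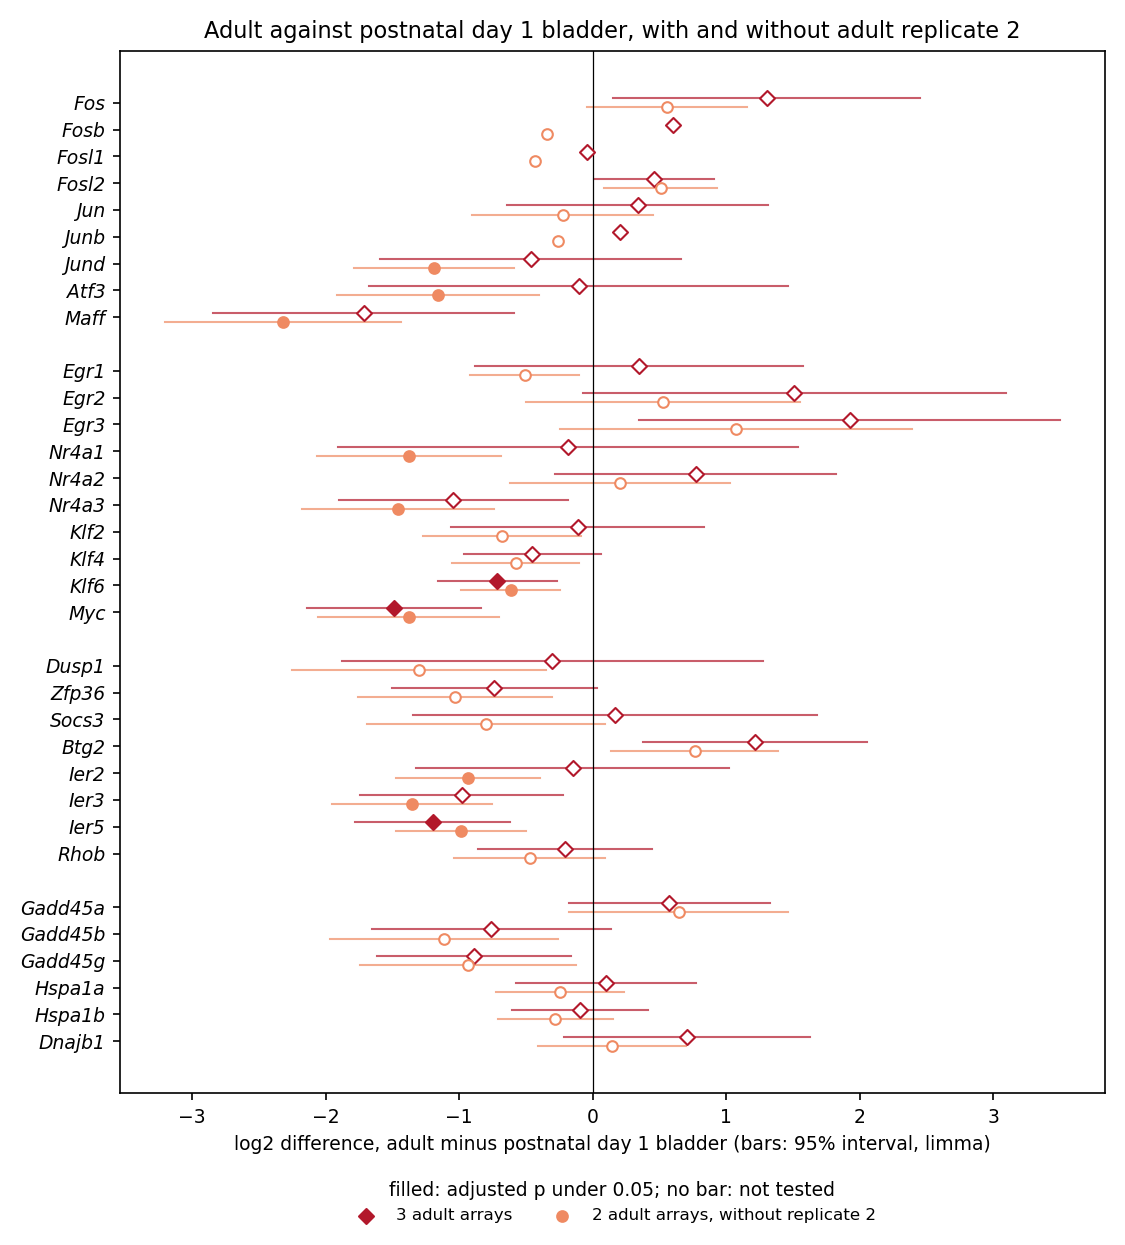
Log2 difference, adult minus postnatal day 1 bladder, of each member with its unadjusted 95% interval from limma (no bar where not tested), for 3 adult arrays (dark red diamonds) and for 2 adult arrays without replicate 2 (orange circles), filled where the adjusted p was under 0.05. With 3 adult arrays 3 symbols are filled and with 2 there are 10, all of them left of 0.

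Of the 9 AP-1 family and related factors of the leucine zipper kind, 8 were over 1 log2 unit higher in adult replicate 2. The other, Fosl2, was level (-0.15) by the probe set that stood for it. A second, weaker Fosl2 probe set was 1.15 log2 units higher there, with 420, 871 and 319 in adult replicates 1, 2 and 3. For Jun, 1 of the 8, a second probe set was only 0.41 higher, with 3936, 5535 and 4402 in the same arrays. Replicate values are given in the order 1, 2, 3 from here on. Fos, the partner of JUN in AP-1, had intensities of 17759.6, 82438 and 16960.4 in adult bladders, against 15103, 13270.2 and 8181 in postnatal day 1 bladders and 4729.5 in whole newborns. All adult arrays were above all postnatal day 1 arrays, and adult replicate 2 was 4.75 times the mean of the other adult arrays. The log2 difference between the stages was 1.30 (SE 0.52, adjusted p = 0.131) with all arrays and 0.56 (adjusted p = 0.186) without adult replicate 2. Fosb, a Fos paralog, had 94.8, 1192 and 163 in adult bladders, against 283, 111 and 155 in postnatal day 1 bladders and 151 in whole newborns. Adult replicate 2 alone was above all 3 postnatal day 1 arrays. Fosl1 (FRA1) had 148, 343 and 103 in adult bladders, against 314, 114 and 168 in postnatal day 1 bladders and 138 in whole newborns, with overlapping stages. Fosl2 (FRA2), in contrast, had 29364, 26924 and 30402 in adult bladders, against 23955, 22900.3 and 16840.1 in postnatal day 1 bladders and 10267 in whole newborns. The adult values averaged 28897 ± 1786 (SD, n = 3) with replicate 2 the lowest of them, and all exceeded the postnatal day 1 values without passing the test (0.46, adjusted p = 0.175).

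Jun had 4278, 13684 and 4159 in adult bladders, against 4869.6, 3637 and 6815 in postnatal day 1 bladders and 4056 in whole newborns. Junb, which can oppose JUN, had 137, 474 and 164 in adult bladders, against 141, 151 and 309 in postnatal day 1 bladders and 179 in whole newborns. In both, adult replicate 2 was the highest array and the other 2 adult arrays lay within or below the postnatal day 1 range. Jund, the JUN paralog with high basal expression in many tissues, had 2536, 10781 and 2195 in adult bladders, against 6336, 4432 and 5728 in postnatal day 1 bladders and 7815 in whole newborns. Its adult replicates 1 and 3 were below every postnatal day 1 array, so that Jund fell by 1.19 log2 units in adult bladder without replicate 2 (adjusted p = 0.0176) and showed -0.47 (adjusted p = 0.608) with it. Atf3, a stress-induced CREB family repressor, had 469, 4727 and 505 in adult bladders, against 1581, 874 and 1088 in postnatal day 1 bladders and 796 in whole newborns. Adult replicate 2 was 3.16 log2 units above its 2 neighbours, and the difference was -0.11 (adjusted p = 0.944) with it and -1.16 (adjusted p = 0.0459) without it. Maff, a small MAF protein that pairs with AP-1 and CNC factors, had 683, 2279 and 551 in adult bladders, against 4103, 4480.4 and 1881 in postnatal day 1 bladders and 795 in whole newborns. Adult replicate 2 fell inside the postnatal day 1 range and the other adult arrays far below it, which gave -1.72 (SE 0.51, adjusted p = 0.0513) with all arrays and -2.32 (SE 0.39, adjusted p = 0.00556, 4.99-fold lower in adult bladder) without adult replicate 2. Without postnatal day 1 replicate 3 Maff was also called lower (-2.11, adjusted p = 0.0429).

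All 3 EGR factors were over 2 log2 units higher in adult replicate 2 than in its 2 neighbours. Egr1, a serum response factor target, had 11663, 68406 and 11298 in adult bladders, against 15700.0, 15530.2 and 17997 in postnatal day 1 bladders and 14853 in whole newborns. Apart from adult replicate 2 the 6 arrays lay between 11298 and 17997. Egr2 (KROX20) had 522, 4979.6 and 692 in adult bladders, against 757, 333 and 251 in postnatal day 1 bladders and 2029 in whole newborns. Egr3 had 579, 3088 and 410.1 in adult bladders, against 539, 137 and 103 in postnatal day 1 bladders and 4962 in whole newborns. For Egr3 the whole newborns were the highest array, and postnatal day 1 replicates 2 and 3 the lowest. None of the 3 was called between the stages, with log2 differences of 0.35, 1.51 and 1.92 for Egr1, Egr2 and Egr3 (adjusted p = 0.737, 0.203 and 0.108). Without adult replicate 2 the differences were -0.51, 0.53 and 1.07 (adjusted p = 0.0881, 0.469 and 0.243).

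Nr4a1 (NUR77), an orphan nuclear receptor, had 766, 8066 and 519 in adult bladders, against 1658, 1504 and 2027 in postnatal day 1 bladders and 1724 in whole newborns. Adult replicate 2 was 12.6 times the mean of the other adult arrays, the highest such ratio of the set. With all arrays the log2 difference was -0.18 (adjusted p = 0.907), and without adult replicate 2 Nr4a1 fell by 1.38 in adult bladder (SE 0.30, adjusted p = 0.0168). Nr4a2 (NURR1) had 1154, 3324 and 855 in adult bladders, against 966, 558 and 1152 in postnatal day 1 bladders and 782 in whole newborns, and its adult replicates 1 and 3 overlapped the newborn bladders. Nr4a3 (NOR1) had 2814, 7853 and 3825 in adult bladders, against 11962, 6174 and 10231 in postnatal day 1 bladders and 2129 in whole newborns. Here adult replicate 2 lay inside the postnatal day 1 range. Nr4a3 showed -1.04 (adjusted p = 0.109) with all arrays and fell by 1.46 (SE 0.32, adjusted p = 0.0159) in adult bladder without adult replicate 2.

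Of the Krüppel-like factors and Myc, Klf6 and Myc fell in adult bladder and neither was high in adult replicate 2. Klf2, a flow-responsive endothelial factor, had 1716, 5135 and 1391 in adult bladders, against 2476, 2450.1 and 2594 in postnatal day 1 bladders and 4168 in whole newborns and was 1.70 log2 units higher in adult replicate 2. Klf4, which acts in epithelial barrier formation and smooth muscle phenotype, had 13802, 17402 and 13030.1 in adult bladders, against 23821, 21377 and 15810.3 in postnatal day 1 bladders and 21295 in whole newborns. The stages overlapped and the difference of -0.45 did not pass the test (adjusted p = 0.239). Klf6 had 14259, 11988 and 15395 in adult bladders, against 23835, 23137 and 21257 in postnatal day 1 bladders and 8347 in whole newborns. All adult arrays were below all postnatal day 1 arrays, with means of 13881 ± 1734 and 22743 ± 1334 (SD, n = 3 each), and Klf6 fell by 0.72 log2 units in adult bladder (SE 0.20, adjusted p = 0.0423, limma) and by 0.61 without adult replicate 2 (adjusted p = 0.0341). That call was kept in 8 of 17 alternative settings and lost in 9, among them median centring (adjusted p = 0.148), leaving out adult replicate 1 (0.111) or 3 (0.101) and leaving out postnatal day 1 replicate 1 (0.115), 2 (0.12) or 3 (0.0784).

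Myc, the growth regulator that is itself an immediate early gene, had 2009, 1679 and 2264 in adult bladders, against 6198, 4023 and 7136 in postnatal day 1 bladders and 4733 in whole newborns. The stages did not overlap, and adult replicate 2 was the lowest array of all. Means were 1984 ± 293 in adult and 5786 ± 1597 in postnatal day 1 bladders (SD, n = 3 each), and Myc fell by 1.49 log2 units in adult bladder (SE 0.29, adjusted p = 0.00822, limma), a 2.81-fold difference. Without adult replicate 2 it fell by 1.38 (adjusted p = 0.0161). Myc was called lower in 17 of 17 alternatives, with adjusted p from 0.00188 to 0.0361.

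Among the feedback regulators, Dusp1, Socs3 and Btg2 were over 1 log2 unit higher in adult replicate 2 and Zfp36 was 0.87 higher. Dusp1, which dephosphorylates MAP kinases, had 2707, 19623 and 2165 in adult bladders, against 9654, 7049 and 3219.6 in postnatal day 1 bladders and 5271 in whole newborns. The log2 difference was -0.30 (adjusted p = 0.827) with all arrays and -1.30 (adjusted p = 0.0677) without adult replicate 2. Socs3, which inhibits JAK and STAT signalling, had 725, 6035 and 811 in adult bladders, against 2192, 1395 and 837 in postnatal day 1 bladders and 2416 in whole newborns. Adult replicates 1 and 3 lay below the 3 postnatal day 1 arrays, if barely below replicate 3. Zfp36 (tristetraprolin), which destabilizes AU-rich transcripts, ranged over 1785 to 3593 in adult and 2733 to 5128 in postnatal day 1 bladders, with 813 in whole newborns. Btg2, an antiproliferative p53 target, had 5457, 15005 and 6239 in adult bladders, against 3105, 4455 and 2883 in postnatal day 1 bladders and 1922 in whole newborns. Here all 3 adult arrays exceeded the postnatal day 1 arrays, and the difference missed the threshold with all arrays (1.22, adjusted p = 0.0614) and without adult replicate 2 (0.76, adjusted p = 0.0927). Without adult replicate 1 it passed (1.49, adjusted p = 0.0461).

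Of the 3 immediate early response genes, which are named for their induction rather than for a shared function, Ier5 fell in adult bladder with all arrays, and Ier2 and Ier3 were called lower when adult replicate 2 was left out. Ier2 had 3229, 16521 and 3175 in adult bladders, against 6917, 5973 and 5670.1 in postnatal day 1 bladders and 2746 in whole newborns. It showed -0.15 (adjusted p = 0.886) with all arrays and fell by 0.93 (SE 0.24, adjusted p = 0.029) in adult bladder without adult replicate 2. Ier3 (IEX1), a regulator of cell survival, had 1761, 4475 and 2348 in adult bladders, against 4867, 6074 and 4983 in postnatal day 1 bladders and 1694 in whole newborns. No adult array reached the postnatal day 1 range, and the difference was -0.98 (adjusted p = 0.0896) with all arrays and -1.36 (adjusted p = 0.0103) without adult replicate 2. Ier5 had 5469, 3627 and 5858 in adult bladders, against 10056, 12732 and 11132 in postnatal day 1 bladders and 2231 in whole newborns. Adult replicate 2 was the lowest bladder array. Ier5 fell by 1.20 log2 units in adult bladder (SE 0.26, adjusted p = 0.0141, limma) and by 0.99 without adult replicate 2 (adjusted p = 0.0159), and was called in 14 of 17 alternatives, the exceptions being median centring (adjusted p = 0.074), the mean of its probe sets (0.372) and leaving out postnatal day 1 replicate 2 (0.0608). Rhob, a small GTPase induced by growth factors and DNA damage, ranged over 4686 to 9342 in adult and 6428 to 8857 in postnatal day 1 bladders, with 3504 in whole newborns, and the stages overlapped.

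The GADD45 proteins, stress sensors that activate p38 and JNK kinases, did not move together. Gadd45a ranged over 645 to 839 in adult and 311 to 570 in postnatal day 1 bladders, with 118 in whole newborns, and all adult arrays were the higher (0.57, adjusted p = 0.314). Gadd45b had 707, 1891 and 1086 in adult bladders, against 2369, 2572 and 1224 in postnatal day 1 bladders and 1359 in whole newborns, with overlapping stages. Gadd45g ranged over 2517 to 3032 in adult and 3223 to 7015 in postnatal day 1 bladders, with 671 in whole newborns, and all adult arrays were the lower (-0.89, adjusted p = 0.105). None of the 3 was called between the stages with all arrays or without adult replicate 2. Gadd45g was called lower without postnatal day 1 replicate 3 (-1.25, adjusted p = 0.0259) and with array weights (-1.02, adjusted p = 0.0134), and Gadd45b with array weights (-0.95, adjusted p = 0.0418).

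The heat-inducible chaperones stood 0.55, 1.04 and 1.68 log2 units above the other adult arrays in adult replicate 2, for Hspa1b, Hspa1a and Dnajb1. By 2 further Hspa1b probe sets the rise was only 0.18 and 0.09. Hspa1a had 6302, 12969 and 6279.8 in adult bladders, against 7197, 7377 and 7841 in postnatal day 1 bladders and 2040.5 in whole newborns. Hspa1b had 23835, 32331 and 20290.4 in adult bladders, against 26031, 32539 and 22508 in postnatal day 1 bladders and 9945 in whole newborns. These 2 genes are near-identical copies, and their probe sets may bind transcripts of both. Dnajb1, the HSP40 co-chaperone of HSPA1, had 7066, 27125 and 10058 in adult bladders, against 6561, 8428 and 8037 in postnatal day 1 bladders and 8520.3 in whole newborns. Between the stages the log2 differences were 0.10, -0.10 and 0.70 for Hspa1a, Hspa1b and Dnajb1 (adjusted p = 0.868, 0.832 and 0.313), and -0.25, -0.28 and 0.14 without adult replicate 2. The remaining members tested, Jun, Nr4a2, Klf2, Socs3, Zfp36, Rhob and Gadd45b, had log2 differences of -0.76 to 0.77 with all arrays (adjusted p = 0.199 to 0.904) and of -1.11 to 0.21 without adult replicate 2 (adjusted p = 0.0604 to 0.74).

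Against the whole newborns, part of the set was higher in bladder at both ages. In adult bladder 7 of 33 members were called higher (8.25% of 13504 genes) and 0 lower (12% of genes; 20.2% were called in either direction), by limma in a fit of all 7 arrays in which the lone whole newborn array was assumed to vary like the bladders. At an unadjusted p under 0.05, 10 were higher (14.9% of genes) and 2 lower (17.8%). With array weights 10 were called higher (19.5% of genes) and 5 lower (21%). The largest of the 7 differences were those of Fos (2.61 log2 units, SE 0.76, adjusted p = 0.0348), Gadd45a (2.20, adjusted p = 0.0116), Btg2 (2.03, adjusted p = 0.0246) and Gadd45g (2.01, adjusted p = 0.0134). Gadd45a read 118 in whole newborns, below that array's median of 434, and passed the filter only through the adult arrays. The size of its difference thus rests on a low value of a single array. Hspa1a (1.95), Fosl2 (1.49) and Hspa1b (1.33) made up the rest. The call of Fos was lost when postnatal day 1 replicate 2 was left out of the shared spread (adjusted p = 0.0555), without the filter (0.0525) and with eBayes without a trend (0.0637). The last setting also ended the call of Hspa1b (0.0565), and the mean of all probe sets ended that of Btg2 (0.123). Without adult replicate 2, the same 7 were called higher together with Ier5 (1.32) and Klf6 (0.82), 9 in all (12.4% of genes). In that fit 4 were called lower (14.7% of genes): Egr3 (-3.22), Jund (-1.71), Klf2 (-1.40) and Nr4a1 (-1.38). The median over the 33 members was 0.62 with all arrays and -0.02 without adult replicate 2.

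In postnatal day 1 bladder 8 of 33 members were called higher than in whole newborns of the same age (4.78% of 13745 genes) and 1 lower (8.42% of genes; 13.2% in either direction). Gadd45g (2.90 log2 units, SE 0.47, adjusted p = 0.00262), Ier5 (2.31, adjusted p = 0.00237), Zfp36 (2.23, adjusted p = 0.0145) and Nr4a3 (2.07, adjusted p = 0.0344) had the largest differences. Hspa1a (1.85), Klf6 (1.44), Hspa1b (1.42) and Fosl2 (1.03) were also called higher. Egr3 was called lower (-4.30, SE 1.02, adjusted p = 0.0199). Averaging all probe sets of a gene ended 5 of these 9 calls, those of Ier5 (1.11, adjusted p = 0.0648), Klf6 (0.91, 0.154), Nr4a3 (0.98, 0.294), Fosl2 (0.60, 0.307) and Egr3 (-2.74, 0.0794). Fosl2 was also lost without the filter (adjusted p = 0.0564). With eBayes without a trend, Fosl2 (adjusted p = 0.121), Nr4a3 (0.0603) and Hspa1b (0.0592) were lost. Leaving out single arrays ended several as well: Fosl2 was lost without adult replicate 1 or 3 or postnatal day 1 replicate 1 or 2 (adjusted p = 0.0751 to 0.108), Nr4a3 without adult replicate 3 or postnatal day 1 replicate 1 or 3 (0.0504 to 0.0811), Hspa1b without postnatal day 1 replicate 2 (0.0548), and Egr3 without postnatal day 1 replicate 2 (0.0553) or 3 (0.0504). Leaving out adult replicate 2 leaves these differences as they are and narrows the shared spread, and 14 members were then called higher (7.56% of genes) and 2 lower (9.69% of genes), Egr2 (-2.20, adjusted p = 0.0327) being added to Egr3. Both comparisons share the whole newborn array. Fosl2, Gadd45g, Hspa1a and Hspa1b were called higher in each of them.

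These differences from whole newborns depend on the scaling. The whole newborn array had the highest median intensity, and centring every array on its median moved the median of all genes to 0.64 log2 units for adult and 0.68 for postnatal day 1 bladder. The members' medians were then 1.29 and 1.18, against 0.62 and 0.50 without centring. Of the calls over all genes, 40.8% were higher in adult bladder without centring, 69.3% with it and 52.5% with quantile normalization, and for postnatal day 1 bladder the shares were 36.2%, 68.3% and 51.1%. The 7 members called higher in adult bladder and the 9 called in postnatal day 1 bladder were all called again with centring. With quantile normalization the 7 were called again, and 8 of the 9, as Fosl2 was lost in postnatal day 1 bladder (0.84, adjusted p = 0.0608, limma).

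**Figure D4:**
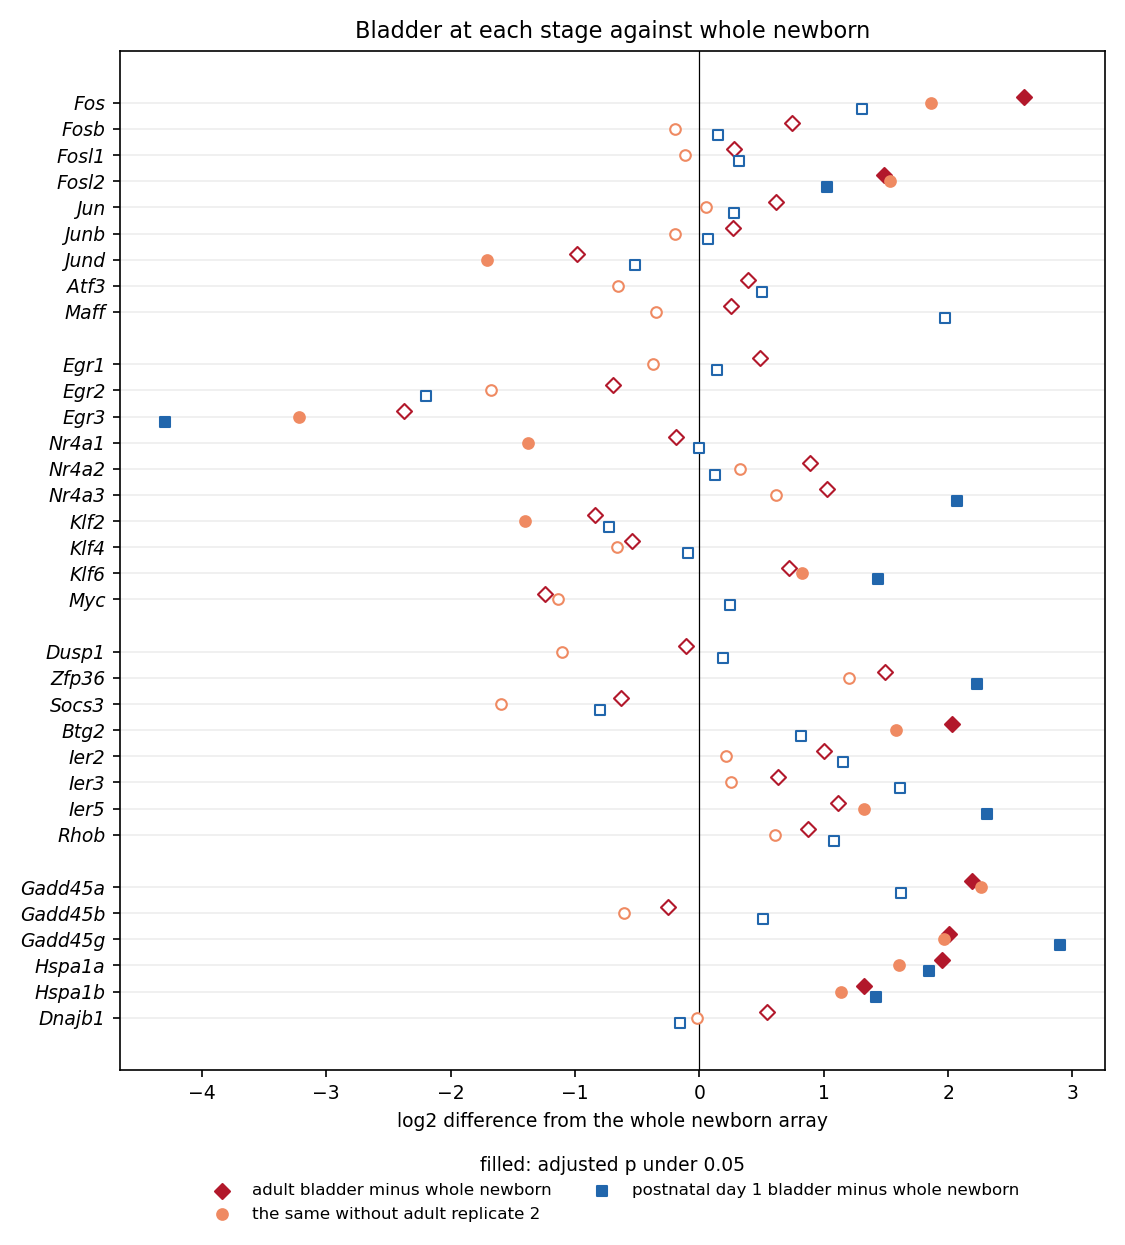
Log2 difference of each member between bladder and the whole newborn array, for adult bladder (dark red diamonds), adult bladder without replicate 2 (orange circles) and postnatal day 1 bladder (blue squares), filled where limma's adjusted p was under 0.05. Filled symbols on the right include Fosl2, Gadd45g, Hspa1a and Hspa1b in all 3 settings, and Egr3 lies furthest left.

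Other immediate early and primary response genes, 48 on the array, shared part of the pattern. On adult replicate 2, 17 of the 48 were over 1 log2 unit higher (7.71% of all genes tested) and 1, Klf10, was lower (8.13%), with a median of 0.48. The 48 include genes that did not pass the filter on low values, while the shares count only genes that did. The widest gaps belonged to the ERK phosphatase Dusp5 (3.45), the chemokine Cxcl1 (3.11), the matricellular proteins Ccn1 (2.78) and Thbs1 (2.76) and the synaptic gene Arc (2.45), named here after their values were seen. Arc was low, with 32.5, 358 and 18.6 in adult bladders, and was not tested. Between the stages, 2 of the 40 tested were called higher in adult bladder (5.88% of genes) and 3 lower (6.59%), near the share of all genes (12.5% in either direction). Rgs2, which limits Gq signalling in smooth muscle, had 48545, 51528 and 50023 in adult bladders, against 23051, 11729 and 18098 in postnatal day 1 bladders (1.56 log2 units, adjusted p = 0.00256). The interferon regulatory factor Irf1 had 2680.2, 3309 and 3631 in adult bladders, against 1119, 886 and 792 in postnatal day 1 bladders (1.73, adjusted p = 0.00301). In both, all 3 adult arrays lay above the postnatal day 1 arrays. The ERK phosphatase Dusp6 had 6286, 5084 and 4097 in adult bladders, against 12201, 14667 and 14389 in postnatal day 1 bladders (-1.42, adjusted p = 0.00425). Ccn2, a target of YAP and TGF-beta, had 4922, 18824 and 4456 in adult bladders, against 49918, 49195 and 25845 in postnatal day 1 bladders (-2.41, adjusted p = 0.00934), and was lower in all adult arrays though adult replicate 2 was the highest of them. The prostaglandin synthase Ptgs2, named after its value was seen, was the other one called lower (-2.08, adjusted p = 0.0139). Without adult replicate 2 the counts were 2 higher (7.44% of genes) and 6 lower (8.23%).

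Among the kinases and factors upstream of the immediate early genes no difference passed the test. Of 20 regulators tested, 0 were called in either direction between the stages by limma (12.5% of all genes tested). At an unadjusted p under 0.05 there were 3 (13.4% of genes were higher and 14% lower). Without adult replicate 2 the 2 counts were 0 (15.7% of genes) and 4 (15.9% of genes higher and 15.9% lower). On adult replicate 2, 1 of the 21 on the array was over 1 log2 unit higher, against 7.71% of all genes tested. It was Myocd, the smooth muscle cofactor of serum response factor, named after its value was seen. The cofactor Mrtfb and the ternary complex factor Elk4, the 2 of highest mean, had differences of -0.31 (adjusted p = 0.458) and -0.14 (adjusted p = 0.707).

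Among other heat shock chaperones, Hsph1 and Chordc1 rose in adult bladder. Of 18 tested, these 2 were called higher in adult bladder (5.88% of all genes tested) and 0 lower (6.59% of genes). In either direction 12.5% of genes were called, so the count is near the share of all genes. Hsph1 (HSP105) had 19517, 25465 and 23653 in adult bladders, against 4841, 7444 and 5217 in postnatal day 1 bladders (1.98, adjusted p = 0.000714). Chordc1, an HSP90 co-chaperone, had 13959, 12843 and 15600.2 in adult bladders, against 3769, 5526 and 6295 in postnatal day 1 bladders (1.46, adjusted p = 0.00472). On adult replicate 2, 3 of 19 were over 1 log2 unit higher (7.71% of genes). Without that array 3 were called higher (7.44% of genes) and 2 lower (8.23%).

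For other stress programmes, counts stand beside all genes tested, of which limma called 5.88% higher in adult bladder and 6.59% lower. At an unadjusted p under 0.05 those shares were 13.4% and 14%. Of 15 genes of unfolded protein and amino acid stress tested, 2 were called higher in adult bladder, the chaperones Creld2 (1.04, adjusted p = 0.0214) and Dnajb9 (1.30, adjusted p = 0.0374), and 2 lower, the master factor Atf4 (-1.04, adjusted p = 0.0145) and the glutathione-degrading enzyme Chac1 (-1.58, adjusted p = 0.0202). Of 11 p53 targets, a list that includes the members Btg2 and Gadd45a, 0 were called and 3 had an unadjusted p under 0.05. Its 2 genes of highest mean, the cyclin Ccng1 and the autophagy factor Trp53inp1, had differences of 0.34 (adjusted p = 0.302) and 0.60 (adjusted p = 0.167). Of 12 hypoxia genes tested, 0 were called higher and 2 lower in adult bladder, the kinase Pdk1 (-1.47, adjusted p = 0.0185) and the oxygen sensor Egln3 (-1.29, adjusted p = 0.0265). On adult replicate 2, 3 of 16 unfolded protein, 2 of 11 p53 and 3 of 13 hypoxia genes were over 1 log2 unit higher, against 7.71% of all genes tested. Without that array, 2 unfolded protein genes were called higher and 2 lower, 1 p53 target higher and 0 lower, and 0 hypoxia genes higher and 3 lower. Of all genes tested, 7.44% were then called higher and 8.23% lower.

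Further probe sets of the same genes were higher on adult replicate 2 as well, but their stage differences varied in sign. In all, 61 probe sets named 1 member alone, 16 members had more than 1, and 17 of the 28 probe sets that did not stand for their gene were above the array's median on at least 3 of 7 arrays. Of these 17, 15 were higher on adult replicate 2 than the mean of the other adult arrays and 11 by over 1 log2 unit. The second Btg2 probe set was 3.11 log2 units higher there, and of 4 further Klf6 probe sets 2 were 1.92 and 1.45 higher. The other 2, which were more intense, stood at -0.11 and 0.01, and the main Klf6 probe set at -0.30. Those of Jun (0.41), Hspa1b (0.18 and 0.09) and Ier5 (-0.26) were not over 1 log2 unit higher either. Between the stages, 7 of the 17 had a sign opposite to the one that stood for the gene, among them both further Hspa1b probe sets and that of Ier5, whose difference was 0.06 log2 units where the main probe set gave -1.20. The further Dnajb1 probe set, also among the 7, gave -0.63 (-1.07 without adult replicate 2), where the main one gave 0.70 (0.14). The 4 further Klf6 probe sets were all lower in adult bladder, at -0.68 to -1.22 log2 units.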

How the data were processed

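Bladder RNA of 3 adult and 3 postnatal day 1 mice and of 1 pool of whole newborns was measured on 7 arrays. The authors deposited 1 linear signal intensity per probe set, made with GCOS per the submitters' processing notes (version and summary method not given in the sources used here). The 2% trimmed mean intensity was 1500.01 on every array, so the values had been scaled. Of 45101 probe sets, 64 were controls, 34945 named 1 gene, 932 several and 9160 none in the platform annotation, and each gene was represented by its probe set of highest mean. The deposited intensities were turned into log2(intensity + 49) here (49 is their 20th percentile) and not centred further. Fold changes of low genes are understated on that scale.

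Differences were tested with limma 3.58.1 in R 4.3.3 (lmFit, eBayes with a trend, two-sided), Benjamini-Hochberg adjusted over all genes tested and called under 0.05. Genes above their array's median on 3 or more of 6 bladder arrays entered the stage comparison, and on 1 or more of the 4 arrays compared in those with whole newborns. The limma fits of adult bladder against postnatal day 1 bladder and against whole newborns were run on simulated data with planted differences. The other steps were not simulated. The members and gene lists were chosen with earlier results of these data known, so no p is given over a list. Full values are given for members called between the stages, the 5 of highest mean and those over 1 log2 unit from the other adult arrays in adult replicate 2, and up to 4 genes are named of each other list (those of lowest adjusted p, or the 2 of highest mean). Alternatives covered the pseudocount, scaling, filter, probe set rule, eBayes settings, array weights and leaving out each array. The number of arrays limits the precision.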

Additional observations from a re-analysis of the deposited data

How the results depend on the processing

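No paired analysis was possible because the labels give animal codes and no replicate numbers shared between the stages. Between the stages, 1488 genes were called, 950 with median centring, 3313 with array weights and 801 to 1869 leaving out 1 array. The 3 members called lower became 1 with median centring, 1 with the mean of all probe sets, 11 with array weights and 1 to 10 leaving out 1 array, and the 0 called higher became 1 with a filter at the 70th percentile, 2 with array weights and 0 to 1 leaving out 1 array. Against whole newborns, 2731 genes were called for adult bladder and 5473 with array weights. The 7 members called higher there became 12 with median centring, 5 with eBayes without a trend and 6 each with no filter, a 70th percentile filter and the mean of all probe sets, and the 0 lower became 1 with quantile normalization, 1 with the mean of all probe sets, 5 with array weights and 0 to 4 leaving out 1 array. For postnatal day 1 bladder, 1814 genes were called and 3063 with array weights, and the members' median of 0.50 was 1.18 with median centring and 0.84 with quantile normalization. The 8 members higher became 5 with the mean of all probe sets, of which 4 were shared (Gadd45g, Hspa1a, Hspa1b and Zfp36) and Gadd45a was added, and 6 to 14 leaving out 1 array, and the 1 lower became 0 with the mean of all probe sets, 2 with array weights and 0 to 2 leaving out 1 array. Of the calls over all genes between the stages, 47.2% were higher in adult bladder, 40.5% without adult replicate 1 and 36.7% without adult replicate 3. The causes were not tested. The count of 20 members over 1 log2 unit higher in adult replicate 2 was 15 with median centring and 23 without the filter. No member called with all arrays changed sign under any alternative run. Of the members called lower between the stages only without adult replicate 2, Ier2, Atf3 and Nr4a1 had positive differences without adult replicate 1 (0.23, 0.44 and 0.28) and without adult replicate 3 (0.25, 0.40 and 0.54), none of them called. The members' median between the stages ranged over -0.58 to 0.27 leaving out 1 array. Low intensities such as those of Fosb, Fosl1 and Junb carry the least precision.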
